A study of Caenorhabditis elegans with 8 samples.

Results

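The genes of fatty acid activation and oxidation were taken as all genes on the array whose C. elegans symbol begins with acs-, cpt-, acdh-, acox-, ech-, hacd- or kat-. They were 58 of the 19441 genes on the array, and 62 of its 20401 probes report them under 60 of its 20113 identifiers. An identifier is a transcript name as the array lists it. By family there were 22 acs-, 6 cpt-, 12 acdh-, 6 acox-, 10 ech-, 1 hacd- and 1 kat- genes. They lie on all 6 chromosomes, with 12 genes on chromosome I, 11 on II, 9 on III, 9 on IV, 13 on V and 4 on X. The reference annotation holds 61 such genes, and the remaining 3, acdh-7, acox-1.4 and acs-23, are not analysed here. No measured value entered the choice.

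A fatty acid is first joined to coenzyme A by an acyl-CoA synthetase of the acs- family. To enter mitochondria, a long chain is passed to carnitine and back by the carnitine palmitoyltransferases of the cpt- family. Each round of oxidation then begins with an acyl-CoA dehydrogenase (acdh-) in mitochondria or an acyl-CoA oxidase (acox-) in peroxisomes, goes on through enoyl-CoA hydratases (ech-) and hydroxyacyl-CoA dehydrogenases (hacd-), and ends with a thiolase (kat-). In C. elegans much of this takes place in the intestine, the animal's main fat store, and the peroxisomal enzymes also shorten the side chains of ascaroside pheromones.

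The arrays compare mutants lacking heterochromatin protein 1 homologues, HPL-1 and HPL-2, and the linker histone H1 variant HIS-24. There were 4 genotypes on the N2 background with 2 biological replicates each, 8 arrays in all. They were a triple mutant (labelled hpl-2; hpl-1 his-24) and all 3 double mutants, namely hpl-2; his-24, then hpl-1; hpl-2, then hpl-1 his-24. The study's summary of its arrays gives the alleles of every strain as tm1624 for hpl-1, tm1489 for hpl-2 and ok1024 for his-24. Its table of genetic interactions lists a different hpl-1 allele for hpl-1; hpl-2, and the labels name no alleles. Each sample was whole animals, 80 to 100 per sample, raised at 21 °C, and the labels give their stage as L4 and young adult where the methods of the study give L4. Every genotype lacks at least 2 of the 3 proteins, 3 of the 4 carry the his-24 deletion and 3 carry that of hpl-2, and no wild type array was analysed here, so each difference is between mutants. In whole animals, fewer cells of a type and less RNA per cell cannot be told apart.

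The values below are log2 signals of 1-colour Agilent arrays, each relative to the 75th percentile of its own array, so a value of 0 is a rather bright probe. The 75th percentile lay between 4613 and 8501 intensity units, against a median local background of 48 to 56.5. Genotypes were compared in limma (two-sided tests), and p-values were adjusted by the Benjamini-Hochberg method over the 17086 identifiers for which 1 genotype or more had both arrays well above background. A gene passed at an adjusted p below 0.05. With 2 arrays against 2, an exact permutation test of 1 gene could not go below a p of 0.333. Both arrays of hpl-2; his-24 lay together on 1 slide, scanned on a day when no other was, so slide, scan day and genotype cannot be told apart there. Slides were shared only by the triple mutant with hpl-1; hpl-2. Replicates differed most in hpl-2; his-24, where the SD of the difference between replicates over the genes of fatty acid activation and oxidation was 0.93, against an SD of 0.20 for the triple mutant, 0.17 for hpl-1; hpl-2 and 0.13 for hpl-1 his-24.

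The deleted genes were checked on every array, without knowing where their probes lie relative to the deletions. The his-24 probe was not well above background on any of the 6 arrays labelled with that deletion and read 0.31 and 0.46 in hpl-1; hpl-2. The brighter hpl-2 probe read 0.07 and 0.08 in the triple mutant, 0.04 and 0.19 in hpl-2; his-24 and 0.33 and 0.52 in hpl-1; hpl-2, against 1.04 and 1.16 in hpl-1 his-24, and was above background everywhere. The hpl-1 probe was not well above background in hpl-1; hpl-2, yet it read -0.60 and -0.53 on the arrays labelled as the triple mutant and -0.37 and -0.30 on those labelled hpl-1 his-24, against -0.49 and -0.66 in hpl-2; his-24, which carries hpl-1 by its label. The hpl-1 signal thus does not show the labelled deletion on 4 arrays. Whether the probe lies outside that deletion or these labels are wrong was not tested. Genotype names below are those on the labels, "triple mutant" stands for the hpl-2; hpl-1 his-24 label, and no direction below is ascribed to the loss of hpl-1.

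Of the 60 identifiers, 59 were tested and stand for 57 genes, since acs-25 was dim in every genotype. The tested identifiers were above background on all 8 arrays in 57 cases, and the others were C17C3.12a of acdh-2 (5 arrays) and C32E8.6b of acs-24 (4 arrays). In at least 1 of the 6 comparisons 55 identifiers passed, and 18 of them passed with a log2 fold change beyond 1.5. The 4 that never passed were both identifiers of acs-24, acs-13 and acdh-12. The genotype with the highest mean was hpl-1 his-24 for 28 identifiers, the triple mutant for 13, hpl-2; his-24 for 13 and hpl-1; hpl-2 for 5. The lowest mean lay in hpl-2; his-24 for 27, in hpl-1; hpl-2 for 16, in the triple mutant for 12 and in hpl-1 his-24 for 4.

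Set against hpl-1 his-24, the genes of fatty acid activation and oxidation were mostly lower in the 3 genotypes with the hpl-2 deletion. In the triple mutant 4 identifiers were higher and 26 lower, where 22.9% of all tested identifiers were higher and 19.1% lower. In hpl-2; his-24 relative to hpl-1 his-24, 8 were higher and 38 lower, and the shares over all identifiers were 33.5% higher and 32.1% lower. In hpl-1; hpl-2 relative to hpl-1 his-24, 2 were higher and 28 lower, with 20.2% and 18.8% over all identifiers. The median log2 fold change of the 59 identifiers was -0.17 in the triple mutant, -0.64 in hpl-2; his-24 and -0.34 in hpl-1; hpl-2, and that of all identifiers was 0.07, 0.03 and 0.03 in the same comparisons. Over the alternatives the medians of the 59 lay between -0.350 (without triple mutant replicate 1) and -0.163 in the triple mutant, between -0.688 and -0.496 in hpl-2; his-24, and between -0.387 and -0.192 (in the deposited log2 table) in hpl-1; hpl-2. The same hpl-1 his-24 arrays serve in all 3 of these comparisons, and their slides held no other genotype. Beyond a log2 fold change of 1.5 stood 8 of the 59 in the triple mutant (13.6%, against 8.21% of all identifiers). In hpl-2; his-24 there were 16 (27.1%, against 16.5% of all) and in hpl-1; hpl-2 there were 2 (3.39%, against 8.16% of all).

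Among the hpl-2 genotypes the directions were mixed. The triple mutant relative to hpl-1; hpl-2, the comparison in which the label differs only in his-24, had 13 identifiers higher and 10 lower, with 11.7% and 10.9% over all identifiers, and 5 beyond 1.5 (8.47%, against 3.93% of all). In the triple mutant relative to hpl-2; his-24, 17 were higher and 10 lower, with 27.6% and 23.3% over all identifiers, and 10 were beyond 1.5 (16.9%, against 10.9% of all). In hpl-2; his-24 relative to hpl-1; hpl-2, 17 were higher and 22 lower, with 23.5% and 28.0% over all identifiers, and 9 were beyond 1.5 (15.3%, against 8.02% of all). The count of higher identifiers in the triple mutant relative to hpl-1; hpl-2 rested on the arrays in the fit: it was 25 without the hpl-2; his-24 arrays and 24 with the slide as a block on the 4 arrays compared.

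**Figure D1:**
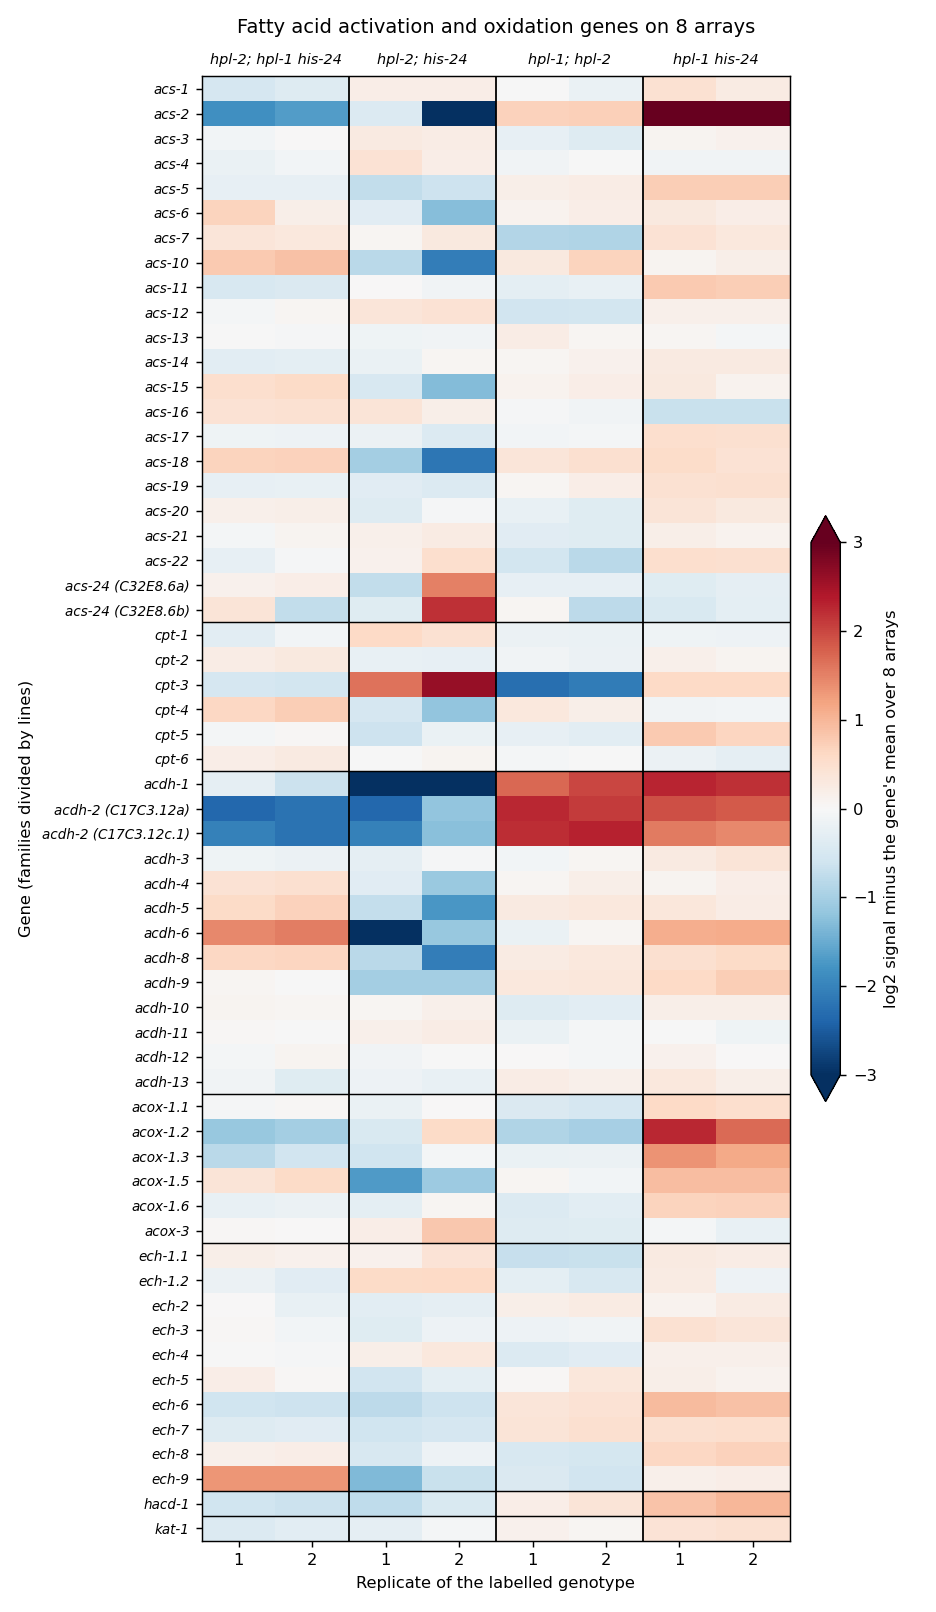
Log2 signal of the 59 tested identifiers on each of 8 arrays (columns, by labelled genotype and replicate) minus the mean of that identifier over the 8 arrays (colour, capped at 3 in either direction), with the 7 families divided by lines. The hpl-1 his-24 columns are the highest for 28 identifiers, acdh-1 is lowest in hpl-2; his-24, and both acdh-2 identifiers are low in the triple mutant and in hpl-2; his-24.

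**Figure D2:**
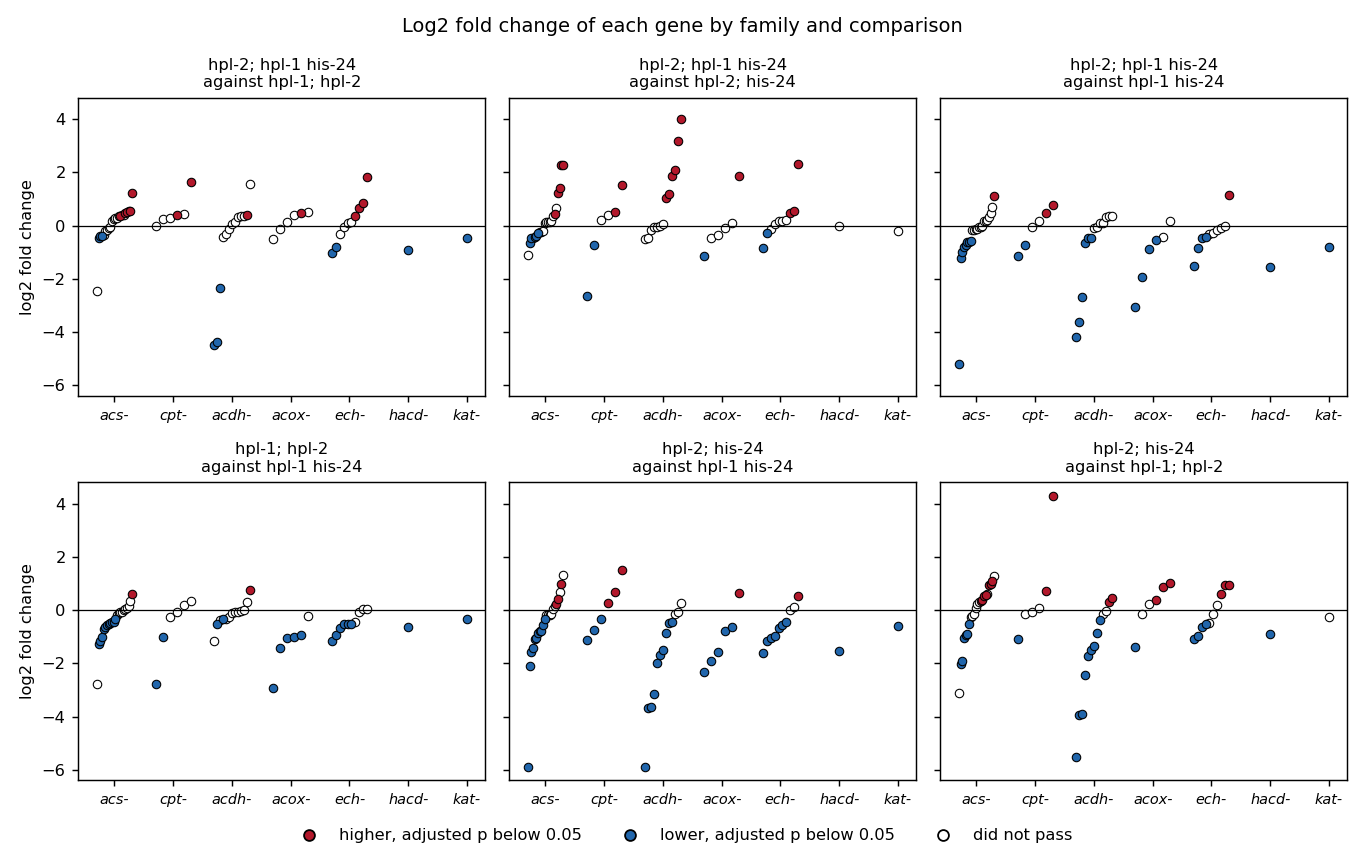
Log2 fold change (vertical axis) of each tested identifier (points, in rising order within its family) in the 6 comparisons (panels), coloured where the adjusted p of limma was below 0.05 and white where it was not. In the 3 comparisons against hpl-1 his-24 the coloured points lie mostly below 0, with 26 lower and 4 higher in the triple mutant, 38 and 8 in hpl-2; his-24 and 28 and 2 in hpl-1; hpl-2.

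Among the acyl-CoA synthetases, 22 identifiers of 21 acs- genes were tested. Against hpl-1 his-24, 8 were lower and 1 higher in the triple mutant, 11 lower and 3 higher in hpl-2; his-24, and 11 lower and 1 higher in hpl-1; hpl-2. Over all identifiers 19.1% were lower and 22.9% higher in the triple mutant, 32.1% and 33.5% in hpl-2; his-24, and 18.8% and 20.2% in hpl-1; hpl-2. The same shares stand beside the family and list counts against hpl-1 his-24 below. The widest range belonged to acs-2 (F28F8.2.4, chromosome V), a mitochondrial acyl-CoA synthetase known to rise on fasting. Its log2 signal was -0.92 and -0.76 in the triple mutant, 0.50 and -3.53 in hpl-2; his-24, 1.61 and 1.61 in hpl-1; hpl-2, and 4.41 and 4.35 in hpl-1 his-24. Both hpl-1 his-24 arrays were thus the highest of the 8, and the replicates of hpl-2; his-24 lay 4.03 apart, one above and one below the triple mutant. It fell by 5.22 ± 1.13 (SE) in the triple mutant relative to hpl-1 his-24 (37.3-fold lower, adjusted p = 0.0117) and by 5.90 ± 1.13 in hpl-2; his-24 relative to hpl-1 his-24 (adjusted p = 0.00427). The first of these calls was lost when any 1 of its 4 arrays was left out (adjusted p up to 0.0592), and the second change was -7.91 without the first hpl-2; his-24 array and -3.88 without the second. In the triple mutant relative to hpl-1; hpl-2 the change was -2.45 ± 1.13 (adjusted p = 0.164), with no overlap between the arrays of these genotypes. In a fit without the hpl-2; his-24 arrays, a choice made after the data were seen, the same change had an adjusted p of 1.9e-05.

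The next acs- genes moved less but with close replicates. In acs-5 (Y76A2B.3.1, chromosome III) the signal was 1.44 and 1.44 in the triple mutant, 0.96 and 1.08 in hpl-2; his-24, 1.87 and 1.92 in hpl-1; hpl-2, and 2.43 and 2.43 in hpl-1 his-24. No 2 genotypes overlapped, and acs-5 passed in all 6 comparisons (the one of the triple mutant with hpl-1; hpl-2 was lost, at an adjusted p up to 0.0932, when any 1 of its 4 arrays was left out), with its largest change in hpl-2; his-24 relative to hpl-1 his-24 (-1.41 ± 0.09, adjusted p = 3.86e-05). Also highest in hpl-1 his-24 were acs-19 (C36A4.9.2), an acetyl-CoA synthetase, and acs-11 (F41C3.3.2). Against hpl-1 his-24, acs-19 fell by 0.72 in the triple mutant, by 0.85 in hpl-2; his-24 and by 0.34 in hpl-1; hpl-2. The acs-19 change in hpl-1; hpl-2 lost its call when any 1 of the 4 arrays compared was left out (adjusted p up to 0.132) and was 0.03 with quantile normalization, and that in the triple mutant was -0.23 in the deposited log2 table (adjusted p = 0.118). acs-11 fell by 1.21 in the triple mutant, by 0.80 in hpl-2; his-24 and by 1.01 in hpl-1; hpl-2.

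The enzyme acs-7 (C01G6.7.1, chromosome II) activates side chains of ascarosides. Its signal was 1.201 and 1.16 in the triple mutant, 0.92 and 1.15 in hpl-2; his-24, -0.04 and -0.05 in hpl-1; hpl-2, and 1.29 and 1.16 in hpl-1 his-24. It was low in hpl-1; hpl-2 alone of the 4 genotypes. The triple mutant was higher than hpl-1; hpl-2 by 1.23 ± 0.11 (adjusted p = 0.000731), hpl-2; his-24 was higher than hpl-1; hpl-2 by 1.08 ± 0.11 (adjusted p = 0.000704), and hpl-1; hpl-2 was lower than hpl-1 his-24 (-1.27 ± 0.11, adjusted p = 0.000266). acs-22 (D1009.1a.2), a fatty acid transport protein homologue with a role in the cuticle barrier beside acs-20, was also lowest in hpl-1; hpl-2. Its log2 fold change there was -1.17 ± 0.16 against hpl-1 his-24 (adjusted p = 0.00191). In the triple mutant its change was -0.63 ± 0.16 (adjusted p = 0.0207), a call lost when any 1 of the 4 arrays compared was left out.

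One synthetase went the other way. For acs-16 (F47G6.2, chromosome I) the signal was 0.37 and 0.40 in the triple mutant, 0.34 and 0.12 in hpl-2; his-24, -0.09 and -0.16 in hpl-1; hpl-2, and -0.74 and -0.74 in hpl-1 his-24. All 6 arrays with the hpl-2 deletion lay above both hpl-1 his-24 arrays. The difference from hpl-1 his-24 was 1.12 ± 0.10 in the triple mutant (adjusted p = 0.00034), 0.97 ± 0.10 in hpl-2; his-24 (adjusted p = 0.000349), as well as 0.61 ± 0.10 in hpl-1; hpl-2 (adjusted p = 0.00434). Of the other synthetases, acs-1 (F46E10.1.2), which activates branched-chain fatty acids, read -1.73 and -1.59 in the triple mutant, -1.02 and -1.02 in hpl-2; his-24, -1.23 and -1.41 in hpl-1; hpl-2, and -0.75 and -0.97 in hpl-1 his-24. It was lowest in the triple mutant, where it fell by 0.80 ± 0.12 against hpl-1 his-24 (adjusted p = 0.0026) and by 0.64 ± 0.12 against hpl-2; his-24 (adjusted p = 0.00573). When the triple mutant was compared with hpl-1; hpl-2, acs-12, acs-20 and acs-21 were higher and acs-14 lower, by no more than 0.55 in either direction. Each of these calls was lost in at least 1 of the fits with an array left out (adjusted p up to 0.234 in acs-20). Among others, acs-3, acs-4 and acs-17 did not pass in that comparison.

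In the carnitine palmitoyltransferases (6 genes, all tested), the directions split. Against hpl-1 his-24, 2 rose and 2 fell in the triple mutant, 3 were higher and 3 lower in hpl-2; his-24, and 2 lower in hpl-1; hpl-2. Over all identifiers the directions were split too, with 22.9% higher and 19.1% lower in the triple mutant and 33.5% and 32.1% in hpl-2; his-24. The split is thus not particular to this family. The gene cpt-3 (Y48G9A.10, chromosome III) passed in all 6 comparisons. Its signal was -2.62 and -2.66 in the triple mutant, -0.49 and 0.50 in hpl-2; his-24, -4.37 and -4.19 in hpl-1; hpl-2, and -1.51 and -1.50 in hpl-1 his-24. The order ran from hpl-1; hpl-2 over the triple mutant and hpl-1 his-24 to hpl-2; his-24, with no overlap between any 2 genotypes. The largest of these differences was 4.29 ± 0.29 (19.6-fold higher, adjusted p = 0.000176) in hpl-2; his-24 relative to hpl-1; hpl-2. The triple mutant stood 1.65 ± 0.29 above hpl-1; hpl-2 (adjusted p = 0.0107) and its log2 fold change was -1.13 ± 0.29 against hpl-1 his-24 (adjusted p = 0.0226). Both calls were lost when any 1 of the arrays compared was left out.

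The other members of the carnitine family changed less. cpt-1, the outer membrane enzyme that commits long chains to mitochondrial oxidation, read 1.11 and 1.34 in the triple mutant, 2.01 and 1.88 in hpl-2; his-24, 1.23 and 1.22 in hpl-1; hpl-2, and 1.29 and 1.27 in hpl-1 his-24. Only hpl-2; his-24 stood apart, by 0.67 ± 0.11 above hpl-1 his-24 (adjusted p = 0.00216) and by 0.72 ± 0.11 above hpl-1; hpl-2 (adjusted p = 0.00275). cpt-5 (F09F3.9.1) read -0.67 and -0.56 in the triple mutant, -1.23 and -0.79 in hpl-2; his-24, -0.84 and -0.92 in hpl-1; hpl-2, and 0.18 and 0.04 in hpl-1 his-24, the highest genotype. All 3 differences of cpt-5 from hpl-1 his-24 passed and lay between -0.73 and -1.12, but that of the triple mutant did not pass without replicate 1 of either genotype (adjusted p up to 0.0643).

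The acyl-CoA dehydrogenases were tested under 13 identifiers of 12 genes. Against hpl-1 his-24, 6 identifiers were lower in the triple mutant, 10 were lower in hpl-2; his-24, and 2 were lower and 1 higher in hpl-1; hpl-2. In limma 0 were higher in the triple mutant, also at an unadjusted p under 0.05, and 0 in hpl-2; his-24, where 1 was at an unadjusted p under 0.05. The family median of the triple mutant relative to hpl-1 his-24 was -0.107 and turned to 0.155 with quantile normalization and to 0.122 in the deposited log2 table. acdh-1 (C55B7.4b.4, chromosome I) oxidizes propionyl-CoA in the propionate shunt, a route that runs when the B12-dependent breakdown of propionate fails. Its signal was 1.83 and 1.46 in the triple mutant, -1.85 and -1.23 in hpl-2; his-24, 3.83 and 4.12 in hpl-1; hpl-2, and 4.40 and 4.29 in hpl-1 his-24. The arrays of hpl-2; his-24 were lowest, the triple mutant came next, and hpl-1; hpl-2 was close to hpl-1 his-24 at the top. The log2 fold change was -5.89 ± 0.23 (59.1-fold lower, adjusted p = 7.63e-06) in hpl-2; his-24 relative to hpl-1 his-24, -2.70 ± 0.23 (adjusted p = 0.000284) in the triple mutant relative to hpl-1 his-24, and -0.37 ± 0.23 (adjusted p = 0.254) in hpl-1; hpl-2 relative to hpl-1 his-24. Between hpl-2 genotypes it was -2.33 ± 0.23 (adjusted p = 0.00116) in the triple mutant relative to hpl-1; hpl-2, and 3.18 ± 0.23 (adjusted p = 0.000254) in the triple mutant relative to hpl-2; his-24. A second, dimmer acdh-1 probe was not well above background on either array of hpl-2; his-24, so that its signal there was at least 60.5-fold lower than in hpl-1 his-24 (adjusted p = 3.39e-06), and in the triple mutant it was at least 6.69-fold higher than in hpl-2; his-24, with an adjusted p of 7.24e-05.

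The closely related acdh-2 (C17C3.12, chromosome II) shared the high and low genotypes of acdh-1 only in part, and cross-hybridization between them was not tested. Its brighter identifier C17C3.12c.1 read -6.99 and -7.16 in the triple mutant, -6.97 and -6.22 in hpl-2; his-24, -2.73 and -2.65 in hpl-1; hpl-2, and -3.39 and -3.52 in hpl-1 his-24. Triple mutant and hpl-2; his-24 were both low here, with a difference of -0.48 ± 0.23 (adjusted p = 0.13), whereas acdh-1 was higher in the triple mutant. The fall was -4.39 ± 0.23 (adjusted p = 9.82e-05) in the triple mutant relative to hpl-1; hpl-2, -3.62 ± 0.23 (adjusted p = 8.77e-05) in the triple mutant relative to hpl-1 his-24, and -3.14 ± 0.23 (adjusted p = 8.21e-05) in hpl-2; his-24 relative to hpl-1 his-24. These sizes depend on the treatment of the background, and in the deposited log2 table, which has no background subtraction, the 3 changes were -2.70, -2.08 and -1.77. The other identifier, C17C3.12a, was not well above background on either array of the triple mutant, so that its signal there was at least 7.22-fold lower than in hpl-1; hpl-2 (adjusted p = 0.000404). It was at least 5.88-fold lower than in hpl-1 his-24 (adjusted p = 0.000232). These bounds, and those of the second acdh-1 probe, set the dim arrays at the lowest signal of a probe well above background on the same array, or at the probe's own value where that was higher.

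Of the remaining dehydrogenases, acdh-9 (F28A10.6, chromosome II) read 1.33 and 1.24 in the triple mutant, 0.25 and 0.23 in hpl-2; his-24, 1.57 and 1.60 in hpl-1; hpl-2, and 1.86 and 1.99 in hpl-1 his-24. It was lowest in hpl-2; his-24 with close replicates, and fell by 1.69 ± 0.09 against hpl-1 his-24 (adjusted p = 2.3e-05). acdh-10 (T08G2.3.4), the medium-chain dehydrogenase, was low in hpl-1; hpl-2, with 2.89 and 2.96, against 3.44 and 3.45 in hpl-1 his-24 (log2 fold change -0.52 ± 0.09, adjusted p = 0.00437). The very long chain dehydrogenase acdh-12 lay between 2.35 and 2.58 on all 8 arrays and passed nowhere.

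**Figure D3:**
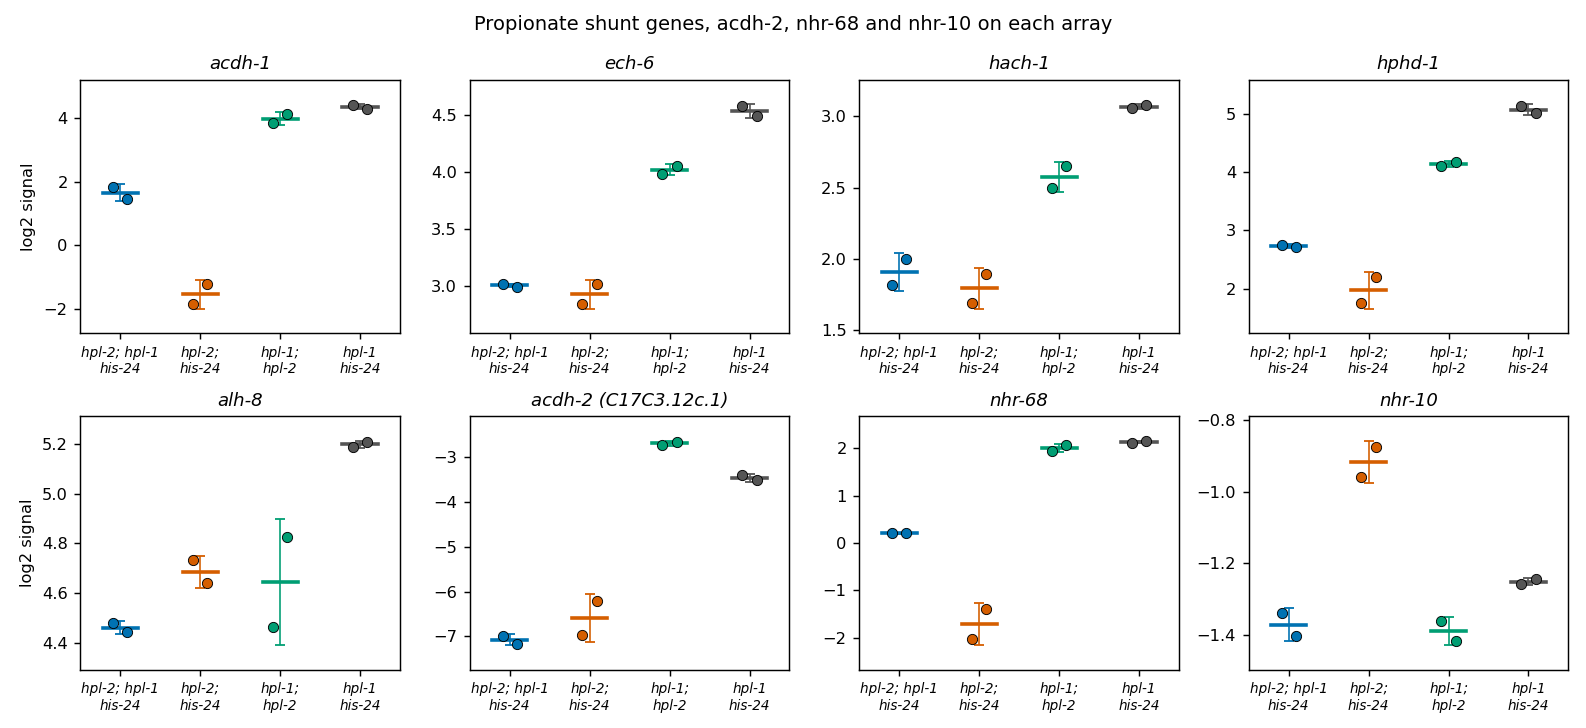
Log2 signal (vertical axes, each with its own range) of the 5 propionate shunt genes, acdh-2, nhr-68 and nhr-10 on the 8 arrays (points), with the mean (bar) and SD (whiskers, n = 2) of each labelled genotype. acdh-1, hphd-1 and nhr-68 are lowest in hpl-2; his-24, next in the triple mutant and highest in hpl-1 his-24, and nhr-10 is highest in hpl-2; his-24.

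The propionate shunt runs from acdh-1 through the hydratase ech-6, the hydrolase hach-1 and the dehydrogenase hphd-1 to alh-8, and its 5 genes were all tested. In the triple mutant and in hpl-2; his-24, 5 of 5 were lower than in hpl-1 his-24, with median log2 fold changes of -1.54 and -1.61, beside 0.07 and 0.03 over all identifiers. In hpl-1; hpl-2 relative to hpl-1 his-24, 4 of 5 were lower (median -0.52), but only 1 with quantile normalization, 2 in the deposited log2 table, 1 without hpl-1 his-24 replicate 1, and 2 without either hpl-1 his-24 replicate 2 or hpl-1; hpl-2 replicate 1. The triple mutant had 4 of 5 lower than hpl-1; hpl-2 (median -1.02), where 10.9% of all identifiers were lower. It had 2 higher than hpl-2; his-24, namely acdh-1 and hphd-1, where 27.6% of all identifiers were higher. ech-6 (T05G5.6.1, chromosome III) read 3.01 and 2.99 in the triple mutant, 2.83 and 3.01 in hpl-2; his-24, 3.99 and 4.05 in hpl-1; hpl-2, and 4.58 and 4.50 in hpl-1 his-24. Triple mutant and hpl-2; his-24 overlapped in ech-6 and lay below the other two genotypes. The ech-6 change was -1.54 ± 0.10 (adjusted p = 8.47e-05) in the triple mutant relative to hpl-1 his-24, -1.61 ± 0.10 (adjusted p = 3.61e-05) in hpl-2; his-24 relative to hpl-1 his-24 and -1.02 ± 0.10 (adjusted p = 0.00099) in the triple mutant relative to hpl-1; hpl-2.

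The shunt genes outside the named families were also lower in the triple mutant and in hpl-2; his-24 than in hpl-1 his-24, but alh-8 had another order. It read 4.48 and 4.44 in the triple mutant, 4.73 and 4.64 in hpl-2; his-24, 4.47 and 4.825 in hpl-1; hpl-2, and 5.19 and 5.21 in hpl-1 his-24. In alh-8 the 3 hpl-2 genotypes thus lay close together. hphd-1 read 2.75 and 2.71 in the triple mutant, 1.75 and 2.20 in hpl-2; his-24, 4.10 and 4.18 in hpl-1; hpl-2, and 5.14 and 5.01 in hpl-1 his-24. It had the order of acdh-1, with no overlap between genotypes, and fell by 2.34 ± 0.15 in the triple mutant (adjusted p = 9.33e-05) and fell by 3.097 ± 0.15 in hpl-2; his-24 (adjusted p = 1.68e-05), each against hpl-1 his-24. hach-1 fell by 1.16 in the triple mutant and by 1.28 in hpl-2; his-24, and alh-8 fell by 0.74 in the triple mutant and by 0.51 in hpl-2; his-24 (adjusted p up to 0.0647 without 1 of the hpl-1 his-24 arrays). The 5 genes of the B12-dependent propionate pathway, pcca-1, pccb-1, mce-1, mmcm-1 and mmaa-1, gave a different count. In limma 0 were lower in any of the 3 hpl-2 genotypes relative to hpl-1 his-24, and at an unadjusted p under 0.05 the count was 1 in the triple mutant, 1 in hpl-2; his-24 and 0 in hpl-1; hpl-2. Of these 5 genes, pcca-1 was higher in hpl-2; his-24, by 0.63 ± 0.12 (adjusted p = 0.00446). The transcription factors NHR-10 and NHR-68 are known to switch on the shunt genes when propionate accumulates. nhr-68 read 0.20 and 0.22 in the triple mutant, -2.02 and -1.39 in hpl-2; his-24, 1.94 and 2.06 in hpl-1; hpl-2, and 2.11 and 2.14 in hpl-1 his-24, an order like that of acdh-1. Its log2 fold change against hpl-1 his-24 was -1.92 ± 0.20 (adjusted p = 0.000568) in the triple mutant and -3.83 ± 0.20 (adjusted p = 1.91e-05) in hpl-2; his-24, and -0.13 ± 0.20 (adjusted p = 0.655) in hpl-1; hpl-2. nhr-114, a receptor with a role in the response to low vitamin B12, fell by 2.10 in the triple mutant and by 3.35 in hpl-2; his-24 relative to hpl-1 his-24 (adjusted p = 2.67e-05 and 2.81e-06). nhr-10 was 0.33 ± 0.09 higher in hpl-2; his-24 than in hpl-1 his-24 (adjusted p = 0.0143, but up to 0.0674 without 1 of the hpl-1 his-24 arrays).

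Beside these changes stand the markers of the intestine, 8 genes under 9 identifiers, all above background on 8 arrays. Their summed level, as log2, was 5.40 and 5.41 in the triple mutant, 5.04 and 5.37 in hpl-2; his-24, 5.84 and 5.91 in hpl-1; hpl-2, and 6.44 and 6.45 in hpl-1 his-24, so that hpl-1 his-24 was the highest here too. Against hpl-1 his-24, 8 of the 9 were lower in the triple mutant (median -1.02), 7 in hpl-2; his-24 (median -1.09), and 7 were lower and 1 higher in hpl-1; hpl-2 (median -0.63). The factor elt-2 changed by -0.04 in the triple mutant and in hpl-2; his-24. The yolk genes, listed apart under 7 identifiers, ranked otherwise. Their summed level was 7.82 and 7.47 in the triple mutant and 8.51 and 8.62 in hpl-2; his-24. It was 7.89 and 8.25 in hpl-1; hpl-2, and 8.59 and 8.37 in hpl-1 his-24. Against hpl-1 his-24, 5 were lower in the triple mutant, 0 in hpl-2; his-24 (also at an unadjusted p under 0.05 in limma) and 2 in hpl-1; hpl-2, and 0 were higher. The part of the intestinal markers in the lower signals was not tested.

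Among the acyl-CoA oxidases (6 genes, all tested), hpl-1 his-24 was highest in 5. Against it 4 were lower in the triple mutant, 5 lower and 1 higher in hpl-2; his-24, and 5 lower in hpl-1; hpl-2, with medians of -0.72, -1.18 and -1.03. acox-1.2 (F08A8.2, chromosome I) read -3.67 and -3.56 in the triple mutant, -3.003 and -1.97 in hpl-2; his-24, -3.44 and -3.55 in hpl-1; hpl-2, and -0.28 and -0.85 in hpl-1 his-24. The 6 arrays with the hpl-2 deletion lay below both hpl-1 his-24 arrays, and the log2 fold change was -3.05 ± 0.34 (8.29-fold lower, adjusted p = 0.000808) in the triple mutant, -1.92 ± 0.34 (adjusted p = 0.00313) in hpl-2; his-24 and -2.93 ± 0.34 (adjusted p = 0.000938) in hpl-1; hpl-2. acox-1.3 (F08A8.3) followed, with changes of -1.93 ± 0.19, -1.57 ± 0.19 and -1.43 ± 0.19 in the same order (adjusted p = 0.000479, 0.000643 and 0.00172). Its second probe fell as well, with changes of -3.43 in the triple mutant, -1.61 in hpl-2; his-24 and -1.76 in hpl-1; hpl-2.

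The best known enzyme of the family, acox-1.1 (F08A8.1b.1, chromosome I), which shortens ascaroside side chains, read 1.70 and 1.77 in the triple mutant, 1.54 and 1.74 in hpl-2; his-24, 1.303 and 1.22 in hpl-1; hpl-2, and 2.33 and 2.24 in hpl-1 his-24. Its lowest genotype was hpl-1; hpl-2, with a fall of 1.02 ± 0.11 against hpl-1 his-24 (adjusted p = 0.000574). acox-1.5 (C48B4.1.2) was lowest in hpl-2; his-24, with -1.65 and -1.04, against 0.97 and 0.96 in hpl-1 his-24 (log2 fold change -2.31 ± 0.20, adjusted p = 0.000151). acox-3 (F58F9.7.1) was the exception to the family, with 2.15 and 2.77 in hpl-2; his-24 against 1.90 and 1.75 in hpl-1 his-24 (0.64 ± 0.19, adjusted p = 0.0259, but up to 0.119 when either hpl-1 his-24 array was left out). Of the enzymes that complete peroxisomal chain shortening, the thiolase daf-22 fell by 0.65 in the triple mutant, by 0.38 in hpl-2; his-24 and by 0.92 in hpl-1; hpl-2, each against hpl-1 his-24 (with an adjusted p of 0.0518 in the triple mutant without hpl-1 his-24 replicate 2, and up to 0.131 in 7 of the 8 fits of hpl-2; his-24 with 1 array left out), while the dehydrogenase dhs-28 passed in none of the 6 comparisons. In the same list of 9 genes the peroxisomal transporter pmp-5 had the widest change, -3.22 ± 0.28 (adjusted p = 0.000299) in the triple mutant and -4.20 ± 0.28 (adjusted p = 5.39e-05) in hpl-2; his-24 relative to hpl-1 his-24.

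**Figure D4:**
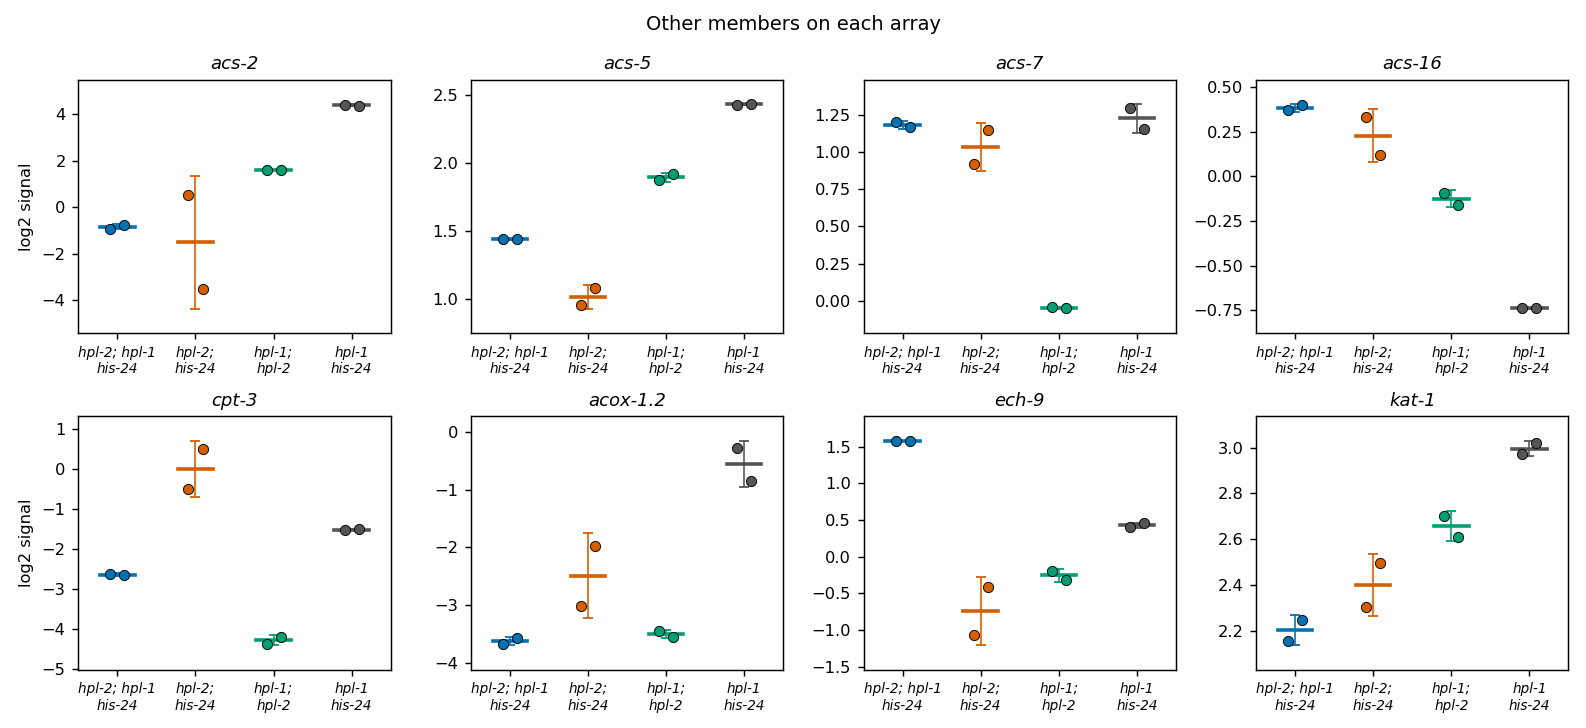
Log2 signal (vertical axes, each with its own range) of 8 further genes on the 8 arrays (points), with the mean (bar) and SD (whiskers, n = 2) of each labelled genotype. acs-2, acs-5, acox-1.2 and kat-1 are highest in hpl-1 his-24, acs-16 is lowest there, acs-7 and cpt-3 are lowest in hpl-1; hpl-2, and ech-9 is highest in the triple mutant.

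Of the 10 enoyl-CoA hydratases and related ech- genes, 4 were lower and 1 higher in the triple mutant, 7 lower and 1 higher in hpl-2; his-24, and 6 lower in hpl-1; hpl-2, all against hpl-1 his-24. Besides ech-6, ech-7 (Y105E8A.4.2) was low where acdh-1 was low, with 2.10 and 2.15 in the triple mutant, 1.89 and 1.99 in hpl-2; his-24, 2.89 and 2.97 in hpl-1; hpl-2, and 2.96 and 3.00 in hpl-1 his-24. The 2 upper genotypes overlapped, and the triple mutant fell by 0.80 ± 0.09 against hpl-1; hpl-2 (adjusted p = 0.00169). ech-9 (F01G10.3, chromosome IV) ran against the others in the triple mutant. Its signal was 1.58 and 1.58 in the triple mutant, -1.07 and -0.41 in hpl-2; his-24, -0.19 and -0.32 in hpl-1; hpl-2, and 0.40 and 0.45 in hpl-1 his-24. The triple mutant was the highest and was higher by 1.83 ± 0.20 than hpl-1; hpl-2 (adjusted p = 0.00173), by 2.32 ± 0.20 than hpl-2; his-24 (adjusted p = 0.000482) and by 1.15 ± 0.20 than hpl-1 his-24 (adjusted p = 0.0055). The gene of the adjacent identifier, ech-8 (F01G10.2), also stood higher in the triple mutant, relative to hpl-1; hpl-2 by 0.68 ± 0.13 (adjusted p = 0.0127), but its log2 fold change against hpl-1 his-24 was -0.48 ± 0.13 (adjusted p = 0.0243). Both ech-8 calls were lost when any 1 of the 4 arrays compared was left out (adjusted p up to 0.0847 and 0.121). ech-1.1 (C29F3.1), an alpha subunit of the mitochondrial trifunctional protein, was low in hpl-1; hpl-2 only, with -2.14 and -2.11, and the triple mutant stood 0.83 ± 0.11 above it (adjusted p = 0.00339). Its relative ech-1.2 (T08B2.7b.1) was instead highest in hpl-2; his-24, with 0.29 and 0.33, by 0.96 ± 0.15 above hpl-1; hpl-2 (adjusted p = 0.00338).

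The last steps had 1 gene each. hacd-1 (R09B5.6.2, chromosome V), a hydroxyacyl-CoA dehydrogenase, read 2.05 and 2.00 in the triple mutant, 1.89 and 2.19 in hpl-2; his-24, 2.84 and 3.04 in hpl-1; hpl-2, and 3.49 and 3.64 in hpl-1 his-24. Triple mutant and hpl-2; his-24 overlapped and lay lowest, and hacd-1 fell by 1.54 ± 0.14 in the triple mutant (adjusted p = 0.000303), by 1.52 ± 0.14 in hpl-2; his-24 (adjusted p = 0.000176), as well as by 0.62 ± 0.14 in hpl-1; hpl-2 (adjusted p = 0.0126, but 0.105 in the deposited log2 table and up to 0.0801 without hpl-1 his-24 replicate 2 or hpl-1; hpl-2 replicate 1), each against hpl-1 his-24. kat-1 (T02G5.8.1, chromosome II) is a mitochondrial 3-ketoacyl-CoA thiolase whose loss is known to raise fat storage. It read 2.15 and 2.25 in the triple mutant, 2.30 and 2.50 in hpl-2; his-24, 2.70 and 2.61 in hpl-1; hpl-2, and 2.97 and 3.02 in hpl-1 his-24. The triple mutant was lowest and hpl-1 his-24 highest with no overlap between these 2, and kat-1 fell by 0.80 ± 0.10 in the triple mutant (adjusted p = 0.00154), by 0.60 ± 0.10 in hpl-2; his-24 (adjusted p = 0.00285), then by 0.34 ± 0.10 in hpl-1; hpl-2 (adjusted p = 0.0414), the last of these not passing with quantile normalization (adjusted p = 0.219) or in 6 of the 8 fits with 1 array left out (adjusted p up to 0.174).

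A further set was lowest in hpl-2; his-24, and the replicates of that genotype did not lie close together. acdh-4, acdh-5, acdh-6, acdh-8, acs-6, acs-10, acs-15, acs-18 and cpt-4 had their highest mean in the triple mutant and their lowest in hpl-2; his-24, and each passed in all 3 comparisons with hpl-2; his-24. They were picked out after their values were seen. With 1 array left out, acdh-5 and acs-18 kept all 3 calls. The call relative to hpl-1; hpl-2 was lost in 7 of the 8 fits for acs-6 (adjusted p up to 0.146) and in 6 for acdh-6 (up to 0.144), and acs-10, acs-15, acdh-4, acdh-8 and cpt-4 each lost at least 1 call, in 1 or 2 fits per comparison (up to 0.108 in acdh-4). acs-18 (R09E10.3, chromosome IV) read -1.36 and -1.36 in the triple mutant, -3.07 and -4.21 in hpl-2; his-24, -1.67 and -1.55 in hpl-1; hpl-2, and -1.48 and -1.61 in hpl-1 his-24. acdh-8 (K05F1.3) read 0.91 and 0.93 in the triple mutant, -0.53 and -1.78 in hpl-2; his-24, 0.54 and 0.61 in hpl-1; hpl-2, and 0.77 and 0.86 in hpl-1 his-24. In both genes hpl-2; his-24 was the only low genotype, with its second array the lower one. The triple mutant relative to hpl-2; his-24 differed by 2.28 ± 0.33 in acs-18 (adjusted p = 0.00254) and by 2.08 ± 0.36 in acdh-8 (adjusted p = 0.00448), and over the 9 genes by 1.19 in acdh-4 to 3.99 in acdh-6. acdh-6 (C02D5.1) differed from the other 8 in its replicates, with -6.12 and -3.37 in hpl-2; his-24 against -1.14 and -1.11 in hpl-1 his-24 (log2 fold change -3.62 ± 0.77, adjusted p = 0.00661).

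Over all 59 identifiers, replicate 1 of hpl-2; his-24 exceeded replicate 2 by more than 0.5 in 9, replicate 2 exceeded replicate 1 by more than 0.5 in 12, and the other 38 lay within 0.5. The first 9 were acs-2 and the 8 genes named above other than acdh-6. The 12 included acdh-6, acs-24, acdh-2, acox-1.2, cpt-3, ech-9 and acdh-1. Of the markers fixed for other tissues, the summed level of 5 sperm genes was 6.66 and 6.48 in the triple mutant, 6.59 and 5.82 in hpl-2; his-24, 6.40 and 6.80 in hpl-1; hpl-2, and 6.63 and 6.66 in hpl-1 his-24, lowest on the second hpl-2; his-24 array. Of these 5 genes, 2 were lower and 0 higher in hpl-2; his-24 than in hpl-1 his-24. spe-11 read -1.66 and -2.60 in hpl-2; his-24 against -0.37 and -0.56 in hpl-1 his-24, and spe-9 read -4.32 and -4.745 against -3.89 and -3.98. The msp genes were near hpl-1 his-24 on replicate 1 only. In hpl-2; his-24 msp-19 read 5.50 and 4.77, msp-31 3.57 and 2.43, and msp-77 5.29 and 4.56. In hpl-1 his-24 they read 5.58 and 5.555, 3.67 and 3.83, and 5.24 and 5.28. The 6 cuticle genes were all lower in hpl-2; his-24 than in hpl-1 his-24, with a median of -3.07, and their summed level was 4.93 and 5.65 in hpl-2; his-24, against 5.72 to 6.38 on the other 6 arrays. The lists of 6 oocyte and eggshell genes and 3 body wall muscle genes each had 1 higher and 1 lower in hpl-2; his-24 than in hpl-1 his-24. The summed oocyte and eggshell level was 6.40 and 6.37 in hpl-2; his-24 against 6.27 and 6.24 in hpl-1 his-24. That of muscle was 3.69 and 3.965 against 3.967 and 3.77. All sperm and cuticle markers tested were above background on 8 arrays, and the part of germ cell content or stage in these differences was not tested.

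**Figure D5:**
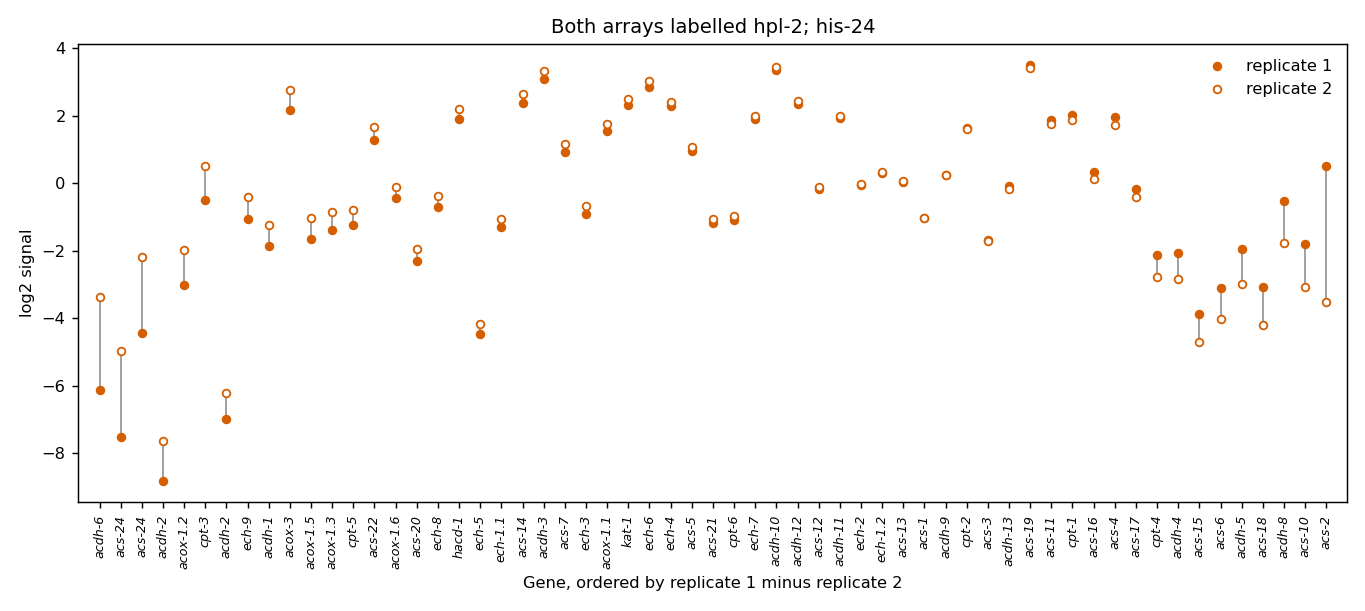
Log2 signal (vertical axis) of each of the 59 identifiers on the 2 arrays labelled hpl-2; his-24 (filled, replicate 1 and open, replicate 2), ordered by the difference between them. At the left end acdh-6 and acs-24 are higher in replicate 2, and at the right end 9 identifiers, acs-2 last with a gap of 4.03, are higher in replicate 1.

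The pathways on either side showed the same rank of hpl-1 his-24 in part. Of the 11 tested genes of fatty acid synthesis and elongation, 6 were lower in the triple mutant, 6 lower and 1 higher in hpl-2; his-24, and 5 lower and 1 higher in hpl-1; hpl-2 relative to hpl-1 his-24. Those lower in the triple mutant were pod-2 and 5 elongases, elo-1, elo-2, elo-4, elo-5 and elo-6, of which elo-5 and elo-6 make branched-chain fatty acids. The calls of pod-2 and elo-4 in the triple mutant were lost with 1 array left out (adjusted p up to 0.197 and 0.0999). fasn-1, the fatty acid synthase, was instead 0.62 higher in hpl-2; his-24 (adjusted p up to 0.129 with 1 array left out). In the glyoxylate and ketone list, icl-1 (C05E4.9), the enzyme that routes acetyl-CoA from fat toward sugars, read 2.31 and 2.32 in the triple mutant, 2.12 and 2.48 in hpl-2; his-24, 2.58 and 2.72 in hpl-1; hpl-2, and 4.67 and 4.49 in hpl-1 his-24 under C05E4.9a.2. It stood high in hpl-1 his-24 only, and fell by 2.26 ± 0.14 in the triple mutant (adjusted p = 8.03e-05), by 2.28 ± 0.14 in hpl-2; his-24 (adjusted p = 4.03e-05), then by 1.93 ± 0.14 in hpl-1; hpl-2 (adjusted p = 0.00014). Of 8 genes of mitochondrial oxidation outside these families, hach-1 included, 5 were lower in the triple mutant, 6 in hpl-2; his-24 and 3 in hpl-1; hpl-2. The thiolase acaa-2 fell by 0.40 in the triple mutant, by 0.47 in hpl-2; his-24 and by 0.39 in hpl-1; hpl-2, and each of these calls was lost in at least 1 fit with an array left out (adjusted p up to 0.185 in hpl-1; hpl-2). Of the transcriptional regulators of fat metabolism, nhr-49, known to drive acs-2 on fasting, was 0.27 ± 0.10 higher in hpl-2; his-24 than in hpl-1 his-24 (adjusted p = 0.0435, but up to 0.177 with 1 array left out) and passed in no other comparison, its cofactor mdt-15 passed in none, and nhr-80 fell by 0.90 in the triple mutant, by 0.93 in hpl-2; his-24 and by 0.54 in hpl-1; hpl-2 relative to hpl-1 his-24 (the last of these with an adjusted p up to 0.123 when 1 of the 4 arrays compared was left out).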

How the data were processed

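Total RNA of 4 mutant genotypes, 600 ng per sample, was hybridised to 1-colour Agilent C. elegans arrays, 2 per genotype. The deposited intensity values were the processed signals of Feature Extraction 9.5.3.1, made by the authors with that software, which subtracts the background and flags outlier spots. The deposited log2 table (the authors' limma values, normalized by median brightness and quantiles without background subtraction) served as an alternative, and 0 of its columns were left unused. Here each array's log2 signal was set relative to its 75th percentile, outlier spots and control spots were left out, spots of a probe were averaged, and an identifier was read by its brightest probe. Identifiers were tested where 1 genotype or more had both arrays well above background in at least 50% of the spots, in limma 3.58.1 (R 4.3.3), with 1 mean per genotype over 8 arrays (4 residual degrees of freedom). Symbols came from RefSeq's WBcel235 gene table by locus tag, and 18124 of 19441 genes matched. The build behind the probe positions is not given in the sources used here, so only chromosomes are printed, and no probe sequences were used here.

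The members, the marker and pathway lists and the comparisons were chosen with earlier results of these data known. Named were the 5 largest rises and falls per comparison among genes that passed without overlap between the arrays, 8 genes in every comparison (acs-1, acs-2, acdh-1, acdh-2, cpt-3, kat-1, ech-6 and acox-1.1), and list members that passed. Other genes are named to complete a family, and were chosen after their values were seen. The alternatives were quantile normalization, normexp background correction with an offset of 50, the filter on dim probes, the deposited log2 table, the mean of probes, the arrays in the fit, the slide and the replicate number as blocks, and each array left out. A fit without the hpl-2; his-24 arrays and array weights were added after seeing the data. The fit was tested on simulated data. Nothing in the labels ties replicates of a genotype to separate cultures beyond their being called replicates, so each p-value sets a difference against the spread between these samples. That spread was pooled over the 4 genotypes, and replicates differed most in hpl-2; his-24. Figures were drawn with Python 3.11.15 and matplotlib 3.10.9.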

Additional observations from a re-analysis of the deposited data

How the results depend on the processing

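Of 154 gene results, 103 kept their direction and their side of the threshold under all alternatives run for them, and over all alternatives 2639 values were unchanged in this sense, 184 lost the call, 28 gained it and 5 reversed. The 5 reversals were all of uncalled changes. Relative to hpl-2; his-24, the triple mutant's changes ranged, with 1 array left out, from -1.34 to 2.69 in acs-2 (the lowest without hpl-2; his-24 replicate 2), from -1.114 to 0.072 in acdh-2 (C17C3.12a, the highest without the same array, and not well above background on the triple mutant arrays or on hpl-2; his-24 replicate 1, so that no direction can be read), from -0.01 to 0.194 in acox-1.1 and from -0.009 to 0.167 in ech-6 (both lowest without hpl-2; his-24 replicate 1). In hpl-1; hpl-2 relative to hpl-1 his-24, acdh-1 was at 0.000 with quantile normalization.

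Of 336 recounts, 290 stayed within 1.5 times the count reported. For the triple mutant relative to hpl-1; hpl-2 the 13 higher identifiers became 23 with only the 4 arrays compared, 24 with the slide as a fixed block, 25 without the hpl-2; his-24 arrays, 20 with array weights and 3 to 25 with 1 array left out. The 10 lower became 16 with the slide block and 6 to 14 with 1 array left out. For the triple mutant relative to hpl-2; his-24 the 10 lower became 4 with only the 4 arrays and 4 to 17 with 1 array left out, and the 10 beyond 1.5 became 7 to 16. For the triple mutant relative to hpl-1 his-24 the 4 higher became 10 with only the 4 arrays, 10 without the hpl-2; his-24 arrays and 2 to 10 with 1 array left out, and the 26 lower became 17 to 27. In hpl-1; hpl-2 relative to hpl-1 his-24 the 2 higher became 1 with quantile normalization, 1 with no filter on dim probes, 1 with the replicate block and 1 to 3 with 1 array left out, and the 28 lower became 17 to 32. In hpl-2; his-24 relative to hpl-1 his-24 the 8 higher became 3 with only the 4 arrays, 5 with array weights and 3 to 9 with 1 array left out. In hpl-2; his-24 relative to hpl-1; hpl-2 the 17 higher became 11 with only the 4 arrays and 11 to 19 with 1 array left out, the 22 lower became 13 to 25 and the 9 beyond 1.5 became 5 to 12. Families moved likewise with 1 array left out: relative to hpl-1 his-24, the lower acs- identifiers numbered 6 to 8 in the triple mutant, 7 to 13 for hpl-2; his-24, and 6 to 12 for hpl-1; hpl-2, and the cpt- family had 0 to 2 higher and 0 to 2 lower in the triple mutant. The cause of these moves was not tested.

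Replicates share only a number: deviations of same-numbered arrays correlated between -0.297 and 0.176. With the replicate block, the counts of higher and lower identifiers were 10 and 9 for the triple mutant relative to hpl-1; hpl-2, 17 and 8 against hpl-2; his-24, 4 and 26 against hpl-1 his-24, 1 and 25 in hpl-1; hpl-2 relative to hpl-1 his-24, 6 and 38 in hpl-2; his-24 relative to hpl-1 his-24, and 14 and 22 in hpl-2; his-24 relative to hpl-1; hpl-2. With 2 arrays per genotype, and hpl-2; his-24 on a slide of its own, small differences in that genotype are limited by its replicate spread and its slide. No slide of hpl-1 his-24 held another genotype, so differences from hpl-1 his-24 cannot be told apart from slide either.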
